A study of Mus musculus with 47 samples.

Results

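The genes described here are the zinc finger protein genes whose symbol is Zfp followed directly by a number. They were taken from the transcript probesets of the series' value table that carry a single gene symbol, and the brightest probeset stood for a gene that had several. Of 72 such symbols, Zfp39 was left out by the rule, which left 71 genes measured by 79 probesets, among 6889 genes with a single symbol and 9815 transcripts tested. All 70 members with a gene identifier in the RefSeq annotation of the GRCm38.p6 build had the same symbol there (Zfp640 had none), 69 of them as protein coding genes. They lie on chromosome 13 (25 members), chromosome 11 (16), chromosome 15 (9), chromosome 14 (5), chromosomes 1, 10 and 12 (4 each) and chromosome 16 (3). No member was found on any other chromosome, and the 9815 transcripts tested are fewer than the gene transcripts the paper says it analysed. The members and their map therefore describe the deposited part of the array and not the whole Zfp series.

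Most proteins of the Zfp series carry fingers of the C2H2 kind, short loops held by a zinc ion, and arrays of such fingers read DNA sequence. Many also carry a KRAB domain, which recruits the co-repressor TRIM28 and, through it, enzymes that lay down repressive chromatin. KRAB zinc finger genes multiplied by tandem duplication and lie in clusters, and a cluster on mouse chromosome 13, called Rsl for regulator of sex-limitation, is known for repressing male-type genes in the liver. Other members of the series work outside this scheme, as ribosome maturation factors, a spindle protein or an RNA-binding protein.

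Liver RNA of 47 female hairless SKH:QS mice from an in-bred colony was hybridised to Affymetrix Mouse Gene 1.0 ST arrays, 1 array a mouse. Treatment began at 8 weeks of age and ran over 36 weeks with 30 weekly treatments, and a UVR exposure was 29 kJ/m2 each time. Control-UVR mice had neither sunscreen nor UVR, Control + UVR mice had UVR alone, and the other groups had a sunscreen holding ZnO nanoparticles (ZnO-UVR, ZnO + UVR), TiO2 nanoparticles together with organic filters (TiO2-UVR, TiO2 + UVR) or organic filters alone (Organic-UVR, Organic + UVR). Each group had 6 arrays but for ZnO + UVR with its 5, which come from mice that lived to the end while other mice of that group did not. The labels speak of single housing and the study's methods of mice of 1 group sharing a cage, and where a cage was shared, cage and treatment cannot be told apart. No gene was deleted or introduced in any group, and each sunscreen is 1 product, so a filter cannot be told apart from the rest of its formulation.

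Signals are log2 intensities after robust multi-array average (RMA). Differences were fitted with limma on all 47 arrays together, with group and replicate number as terms, and a transcript was called where p, adjusted by the method of Benjamini and Hochberg, was under 0.1, the false discovery rate the study used. The mean signal of the 10 measured hepatocyte marker genes lay between 11.56 and 12.27 on all arrays, and the 4 measured muscle and fat markers lay between 3.90 and 4.81. In whole liver, fewer cells of a type and less RNA per cell cannot be told apart. One array stood apart from the rest. Organic-UVR replicate 1 had a slope of 0.77 against the mean of all arrays. The other groups' lowest slopes were between 0.90 and 1.02. Values without that replicate are given beside many of the calls and counts named here that it changes. Over all transcripts, members included, the comparisons with Control-UVR called 5 transcripts in Control + UVR, 0 in ZnO-UVR, ZnO + UVR and TiO2-UVR, 68 in TiO2 + UVR, 321 in Organic-UVR (66 without replicate 1) and 162 in Organic + UVR.

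The promoters of members that the results below turn on are printed first, since most members of a chromosome 13 cluster described later share a stretch of sequence there. Each is the 250 bases before the start of transcription, 5′ to 3′ on the gene's own strand, from RefSeq on GRCm38.p6. Capitals mark every match to 4 motifs searched on both strands, which are the GC box (GGGCGG or CCGCCC), the CCAAT box (CCAAT or ATTGG), the TATA box (TATAAA or TTTATA) and an element TGGGANNTGTAGT or ACTACANNTCCCA, which was chosen after the sequences were seen and is the core of a sequence known to be bound by the zinc finger protein ZNF143. These are the promoters of 3 members called in a comparison (Zfp72 at chr13:74390830-74391079, minus strand; Zfp622 at chr15:25984116-25984365, plus strand; Zfp652 at chr11:95748817-95749066, plus strand) and of 3 members of the chromosome 13 cluster (Zfp58 at chr13:67500523-67500772, minus strand; Zfp759 at chr13:67127978-67128227, plus strand; Zfp953 at chr13:67360573-67360822, minus strand). For Zfp72 RefSeq lists 2 starts and the one farther upstream is shown.
Zfp72: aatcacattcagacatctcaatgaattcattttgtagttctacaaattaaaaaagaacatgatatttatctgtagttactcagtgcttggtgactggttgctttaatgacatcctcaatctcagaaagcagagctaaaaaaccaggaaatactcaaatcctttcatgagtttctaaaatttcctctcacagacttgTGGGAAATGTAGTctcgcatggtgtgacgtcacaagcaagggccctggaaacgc
Zfp58: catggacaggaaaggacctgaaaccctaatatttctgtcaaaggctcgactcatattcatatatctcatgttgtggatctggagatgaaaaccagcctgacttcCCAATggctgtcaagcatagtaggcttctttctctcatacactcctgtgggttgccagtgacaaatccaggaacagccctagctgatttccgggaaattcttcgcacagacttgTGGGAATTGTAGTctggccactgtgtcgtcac
Zfp759: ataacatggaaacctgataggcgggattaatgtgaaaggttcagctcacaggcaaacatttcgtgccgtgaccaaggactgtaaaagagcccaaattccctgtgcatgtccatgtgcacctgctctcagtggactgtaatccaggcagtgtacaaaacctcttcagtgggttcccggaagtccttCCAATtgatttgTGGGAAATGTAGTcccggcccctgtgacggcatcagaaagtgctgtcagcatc
Zfp953: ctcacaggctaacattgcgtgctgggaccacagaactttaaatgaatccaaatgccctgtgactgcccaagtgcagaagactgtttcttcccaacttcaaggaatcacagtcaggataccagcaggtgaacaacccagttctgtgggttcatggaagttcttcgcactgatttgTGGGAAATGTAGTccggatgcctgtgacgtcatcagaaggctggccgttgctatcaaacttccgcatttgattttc
Zfp622: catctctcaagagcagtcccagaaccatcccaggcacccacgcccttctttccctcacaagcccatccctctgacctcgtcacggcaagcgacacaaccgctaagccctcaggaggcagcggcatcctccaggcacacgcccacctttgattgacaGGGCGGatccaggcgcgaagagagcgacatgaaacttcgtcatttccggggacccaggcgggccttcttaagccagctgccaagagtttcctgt
Zfp652: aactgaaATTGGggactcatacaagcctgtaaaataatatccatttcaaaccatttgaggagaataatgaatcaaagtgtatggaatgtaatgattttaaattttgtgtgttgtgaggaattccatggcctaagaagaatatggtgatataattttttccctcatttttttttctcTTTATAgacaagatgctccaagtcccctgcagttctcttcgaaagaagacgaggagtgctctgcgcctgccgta

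The element TGGGANNTGTAGT stands in the promoters of Zfp72, Zfp58, Zfp759 and Zfp953 and in neither of the other promoters printed. RefSeq listed a promoter for 56 of the 71 members. The element was found for 12 of the 13 genes of the chromosome 13 cluster that had one, between 14 and 166 bases before the start (median 44), and for 3 of the other 43 members, which were Zfp72, Zfp454 and Zfp879. Over all 27025 genes with a promoter the share was 1.55%. The cluster genes with the element include some that did not follow the mean of the other cluster members at r above 0.5. The 3 cluster promoters printed belong to the 3 cluster genes that followed that mean most closely. A GC box stood in 0 of the 14 promoters of the cluster, in 44.8% of the promoters of the other members and in 32.7% of all promoters, and the shares of all promoters with a CCAAT box and a TATA box were 33.8% and 12.4%. Stretches of 20 identical bases were shared by 8 of 78 pairs of genes within the cluster, 3 of 559 pairs with 1 gene inside it and 0 of 903 pairs outside it, and all 3 mixed pairs joined Zfp72 to Zfp457, Zfp458 or Zfp595. Matches may overlap at their edges, and a match is a description of these letters and not of a bound site.

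Zfp72, a zinc finger gene at chr13:74369321-74390861, was the only member called against Control-UVR, and it was lower in both groups given organic filters and UVR. Its signal was between 4.65 and 5.04 (median 4.87) in Control-UVR, between 3.74 and 4.50 (median 4.34) in TiO2 + UVR and between 4.17 and 4.55 (median 4.24) in Organic + UVR. Neither of these groups overlapped with Control-UVR. Zfp72 is described because it was called, so this separation is no further support. The share of all transcripts without overlap was not counted. The difference was -0.62 (SE 0.15) in TiO2 + UVR and -0.55 (SE 0.15) in Organic + UVR, with limma's adjusted p at 0.0531 and 0.0811. That made 1 of 71 members called in each comparison, beside 0.693% and 1.65% of all transcripts, and in the lower direction 0.52% and 1.4%.

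In the other groups Zfp72 overlapped with Control-UVR. It was between 4.07 and 4.77 in TiO2-UVR (median 4.53) and between 4.11 and 5.21 in Organic-UVR (median 4.57), and the 5 ZnO + UVR arrays gave 4.68, 4.47, 4.75, 4.46 and 4.46. In Control + UVR it split into 3 arrays at 5.05 to 5.29 and 3 at 4.06 to 4.40, and in ZnO-UVR it ran from 4.13 to 4.86. Without single arrays the call in TiO2 + UVR was lost in 5 of 47 fits (Control-UVR replicates 1, 4 and 6, TiO2 + UVR replicates 3 and 4, adjusted p 0.114 to 0.213), and that in Organic + UVR in 8 (Control-UVR replicates 1, 2, 4 and 6, Organic + UVR replicates 2, 3, 4 and 6, adjusted p 0.107 to 0.228), always with a difference below 0. Without the replicate term neither passed (limma adjusted p = 0.184 and 0.175), and the Organic + UVR call was also lost with the compared groups fitted alone (limma adjusted p = 0.117), after quantile normalization (limma adjusted p = 0.145) and with the array slope as a covariate (limma adjusted p = 0.275). Zfp72 is also an old name of Zfp87, which belongs to the chromosome 13 cluster described later, while Zfp72 itself lies outside it. The gene here was identified by its gene identifier, not its symbol.

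The comparison of all groups given a product with organic filters (TiO2 and Organic, 24 arrays) with all groups without one (Control and ZnO, 23 arrays) had a median 95% interval of 0.143 to either side, as had that of UVR over all treatments, and it called 4 of the 71 members, each of them lower: Zfp72, Zfp622, Zfp706 and Zfp652. Over all transcripts 4.94% were called and 3.4% were called lower, so the members' share of 5.63% stands near the background. Leaving out Organic-UVR replicate 1 left 2 members called, Zfp72 and Zfp622, and 335 transcripts, against 485 transcripts with all arrays. All 4 groups with organic filters hold a formulation that the other 4 lack, and filters and formulation cannot be told apart.

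**Figure D1:**
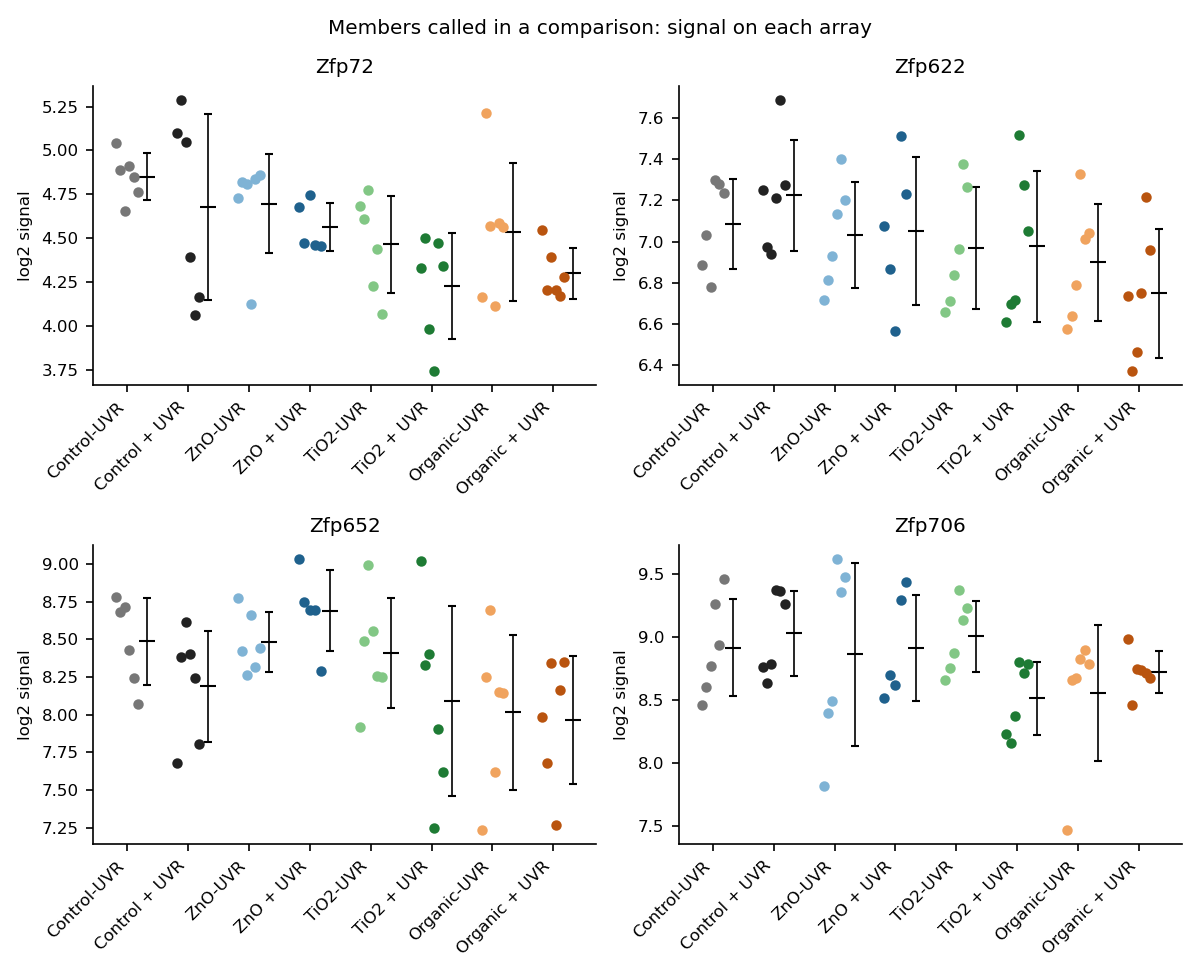
Log2 signal of Zfp72, Zfp622, Zfp652 and Zfp706 (vertical axes, 1 scale per gene) on each of the 47 arrays, by group, with the mean and SD of the group as a bar beside the points. The TiO2 + UVR and Organic + UVR arrays of Zfp72 lie below all Control-UVR arrays, and in the other panels the groups overlap.

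Zfp72 differed by -0.31 (SE 0.08, limma adjusted p = 0.0249) between these sides of the series, with means of 4.38 with organic filters and 4.70 without. The estimate was -0.27 among the groups without UVR and -0.34 among those with UVR, each fitted alone, and neither passed (limma adjusted p = 0.22 and 0.231, alternatives added after the data were seen). Zfp72 was the 1 member that was still called without the replicate term (limma adjusted p = 0.0642) and after quantile normalization (limma adjusted p = 0.0206).

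Zfp622, known as a factor in the maturation of the large ribosomal subunit, differed by -0.21 (SE 0.05, limma adjusted p = 0.028), from a mean of 7.10 without organic filters to 6.90 with them. In Control-UVR it was between 6.78 and 7.30 (median 7.13) and in Organic + UVR, the lowest group, between 6.37 and 7.22 (median 6.74), where the difference from Control-UVR was -0.34 (SE 0.11) and did not pass (limma adjusted p = 0.115). The groups overlapped throughout, with arrays up to 7.52 in TiO2 + UVR. Replicate numbers 4 to 6 read on average 0.45 above numbers 1 to 3 once group means were removed, and without the replicate term the difference of -0.20 did not pass (limma adjusted p = 0.256). All 47 fits that left out 1 array kept the call.

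Zfp706, a small zinc finger protein known from mouse embryonic stem cells as a repressor of Klf4, differed by -0.25 (SE 0.08, limma adjusted p = 0.0832), from 8.93 without organic filters to 8.70 with them. The TiO2 + UVR arrays were between 8.16 and 8.80 (median 8.55) and the TiO2-UVR arrays between 8.66 and 9.38 (median 9.01), a difference of -0.49 (SE 0.16, limma adjusted p = 0.237). Replicate numbers 4 to 6 read 0.59 above numbers 1 to 3, the widest such gap among members and one reached by few transcripts (3.97% differed by over 0.5). With numbers 4 to 6 alone the organic filter difference was -0.46 (limma adjusted p = 0.00121), and with numbers 1 to 3 alone it was -0.04 (limma adjusted p = 0.873). Organic-UVR replicate 1 was the lowest array at 7.47, and without it the difference was -0.21 (limma adjusted p = 0.129).

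The probeset used for Zfp706 does not lie where its gene does by its number. The gene is on chromosome 15, and of the 14 single-gene probesets closest in number to the one used, 12 belong to genes on chromosome 1. A second and dimmer probeset, whose 15 neighbours are all on chromosome 15, correlated with it at r = 0.32 over 47 arrays and gave an organic filter difference of -0.14 (limma adjusted p = 0.19). Zfp825 had the same mismatch (gene on chromosome 13, 15 of 18 neighbours on chromosome 1, r = 0.68 to its second probeset). Whether the brighter probesets read another copy of these genes was not tested.

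Zfp652, known as a DNA-binding partner of the co-repressor CBFA2T3, differed by -0.33 (SE 0.11, limma adjusted p = 0.0853), from 8.46 without organic filters to 8.12 with them. It was between 8.07 and 8.78 (median 8.55) in Control-UVR, between 7.23 and 8.69 (median 8.15) in Organic-UVR, between 7.27 and 8.35 (median 8.08) in Organic + UVR and between 7.25 and 9.02 (median 8.12) in TiO2 + UVR, the widest group. The 5 ZnO + UVR arrays were at 9.03, 8.75, 8.69, 8.69 and 8.29, the first of them the highest of all arrays. Its residual signal followed the slope of the array (r = 0.71 over 47 arrays, against 0.55 for Zfp706, 0.36 for Zfp72 and 0.12 for Zfp622), and with the slope as a covariate its difference was -0.17 (limma adjusted p = 0.413) and that of Zfp706 was -0.16 (limma adjusted p = 0.359). Without Organic-UVR replicate 1 it was -0.29 (limma adjusted p = 0.134), and 24 of the 47 fits without 1 array lost its call (limma adjusted p 0.102 to 0.143) as 23 did for Zfp706 (limma adjusted p 0.1004 to 0.14).

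**Figure D2:**
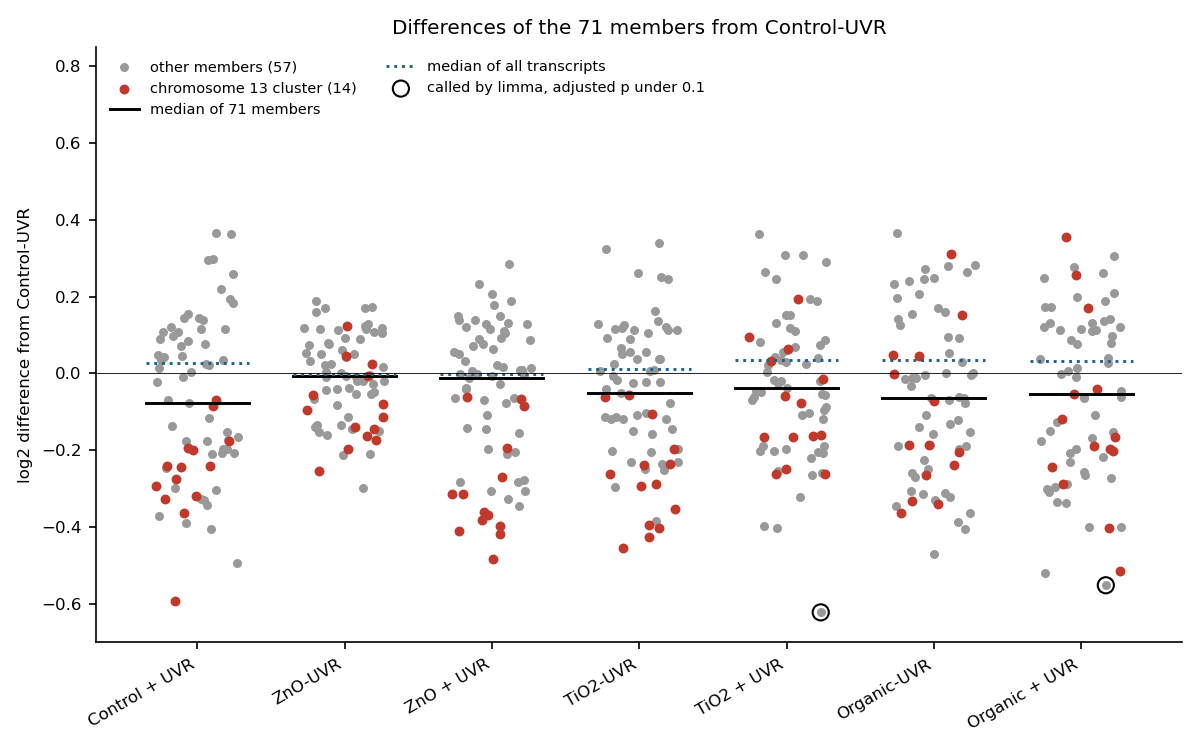
Log2 difference from Control-UVR (vertical axis) of each of the 71 members in the 7 treated groups, with the 14 members of the chromosome 13 cluster in red, called members ringed, and the medians of the members and of all 9815 transcripts as lines. Zfp72 is ringed in TiO2 + UVR and Organic + UVR, and all 14 cluster members lie below 0 in Control + UVR, ZnO + UVR and TiO2-UVR.

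UVR without sunscreen called 0 members at the adjusted threshold, where 0.0509% of all transcripts were called. At an unadjusted p under 0.05 limma gave 11 of 71 members (3 higher, 8 lower), or 15.5%, beside 12.8% of all transcripts. The median member differed by -0.08 and the median transcript by 0.03, and 40 members were below 0. The members with the smallest p were Zfp451, a SUMO ligase, at -0.49 (SE 0.14, limma adjusted p = 0.202), Zfp759 at -0.59 (SE 0.20, limma adjusted p = 0.265) and Zfp738 at -0.36 (SE 0.13, limma adjusted p = 0.266).

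Zfp451 was between 5.94 and 6.41 (median 6.25) in Control-UVR and between 5.34 and 6.22 (median 5.63) in Control + UVR, so the groups overlapped by the 2 highest arrays of the latter. Without Organic-UVR replicate 1 the same difference passed (limma adjusted p = 0.0772). In Control + UVR, Zfp759 was at 6.03, 6.36 and 6.40 in replicates 1 to 3 and at 4.96, 5.50 and 5.55 in replicates 4 to 6, where Control-UVR ran from 6.07 to 6.63. With replicate numbers 4 to 6 alone, 9 members were called in Control + UVR (8 lower), where 507 transcripts were (5.17%), and with numbers 1 to 3 alone 0 members and 0 transcripts were.

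The groups given ZnO showed no called member. ZnO-UVR had 1 member at an unadjusted p under 0.05, beside 1.52% of all transcripts, and 0% of transcripts were called after adjustment. That member was Zfp867 (-0.30, SE 0.13), followed by Zfp738 (-0.25, SE 0.13) and Zfp672 (0.17, SE 0.10), all at a limma adjusted p of 1.00. In ZnO + UVR 9 members (7 lower) had an unadjusted p under 0.05, beside 2.81% of all transcripts, and 0% passed adjustment. They were led by Zfp738 (-0.38, SE 0.13), Zfp58 (-0.48, SE 0.20) and Zfp748 (-0.40, SE 0.17), which all lie in the chromosome 13 cluster, as 5 of the 9 do. The median 95% interval of a member reached 0.28 to either side in ZnO-UVR and 0.30 in ZnO + UVR, so a difference of that size would lie within the error.

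TiO2-UVR gave 9 members (4 higher, 5 lower) at an unadjusted p under 0.05, beside 3.86% of all transcripts, and 0 called members where 0% of transcripts were called. Zfp72 (-0.38, SE 0.15), Zfp58 (-0.46, SE 0.19) and Zfp286 (0.34, SE 0.14) had the smallest p, each at a limma adjusted p of 0.968. In TiO2 + UVR 6 members had an unadjusted p under 0.05, beside 10.2% of all transcripts, and Zfp72 was the 1 that passed adjustment. The median member was 0.05 below Control-UVR in TiO2-UVR and 0.04 below it in TiO2 + UVR.

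In Organic-UVR 3.27% of transcripts were called, and 0 of them were members. Its count of 321 transcripts fell to 66 without replicate 1, and the order against Organic + UVR turned with array weights (841 and 1460 transcripts), with the compared groups fitted alone (1 and 14) and with replicate numbers 4 to 6 alone (1 and 21). Of the members 16 (4 higher, 12 lower), or 22.5%, had an unadjusted p under 0.05, beside 19.1% of all transcripts, and without replicate 1 these were 5 members beside 9.18%. Zfp938 differed by -0.39 (SE 0.14, limma adjusted p = 0.135), Zfp386 by -0.40 (SE 0.15, limma adjusted p = 0.144) and Zfp174 by 0.36 (SE 0.14, limma adjusted p = 0.148). Zfp938 was between 7.12 and 7.60 (median 7.27) against 7.36 to 8.06 (median 7.64) in Control-UVR, and Zfp174 was between 4.94 and 6.04 (median 5.56) against 4.71 to 5.29 (median 5.25). Zfp938 passed when Control-UVR replicate 3, Control + UVR replicate 1 or Organic-UVR replicate 5 was left out (limma adjusted p 0.0944 to 0.0962), and Zfp174 passed when either Control + UVR replicate 1 or Organic-UVR replicate 4 was (limma adjusted p 0.0984 and 0.0778). In Organic + UVR 11 members (10 lower) had an unadjusted p under 0.05, beside 17.1% of all transcripts. These 7 comparisons share the Control-UVR arrays, so a low or high reading there enters all of them.

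Within a sunscreen, UVR called 0 members. In ZnO + UVR against ZnO-UVR 1 member (Zfp595, -0.54, SE 0.19) had an unadjusted p under 0.05, beside 2.19% of all transcripts, with 0% called. In TiO2 + UVR against TiO2-UVR there were 2 (Zfp706 and Zfp708), beside 6.65%, with 0.652% of transcripts called. In Organic + UVR against Organic-UVR there were 4, beside 3.39%, with 0% called. Those were Zfp174 (-0.41, SE 0.14), Zfp879 (-0.29, SE 0.12), Zfp454 (0.25, SE 0.12) and Zfp389 (0.30, SE 0.15), and the limma adjusted p of each was 0.998. Leaving out Organic-UVR replicate 1 gave 6 members at an unadjusted p under 0.05 there, beside 7.06% of all transcripts. Over the 4 treatments together UVR gave 7 members (2 higher, 5 lower) at an unadjusted p under 0.05, beside 6.8%, and 0 called where 0% of transcripts were, led by Zfp451 (-0.20, SE 0.07), Zfp174 (-0.20, SE 0.07) and Zfp454 (0.16, SE 0.06), and without Organic-UVR replicate 1 there were 12 beside 13.2%.

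The difference in UVR response between each sunscreen and the untreated skin was tested as an interaction, and 0 members were called in any of the 3. For ZnO, 2 members (Zfp410 and Zfp957) had an unadjusted p under 0.05, beside 3.79% of transcripts, with 0% called. For TiO2, 11 members (8 higher) did, beside 8.49%, with 0.173% called. For Organic, 11 members (7 higher) did, beside 7.43%, with 0% called, and without Organic-UVR replicate 1 these were 4 members beside 4.19%. The smallest p in TiO2 belonged to Zfp451 (0.54, SE 0.19, limma adjusted p = 0.344), Zfp706 (-0.61, SE 0.22, limma adjusted p = 0.355) and Zfp707 (-0.45, SE 0.17, limma adjusted p = 0.389), and in Organic to Zfp286 (-0.59, SE 0.20, limma adjusted p = 0.599). In the organic filter comparison 12 members (9 lower) had an unadjusted p under 0.05, beside 19.6% of transcripts. Leaving out Organic-UVR replicate 1 gave 12 members beside 16%.

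Of the 25 members on chromosome 13, 14 lie next to each other at chr13:67069398-67827000, a stretch of 758 kb in which no gap between members is over 1 Mb. In map order they are Zfp708, Zfp759, Zfp455, Zfp458, Zfp457, Zfp595, Zfp953, Zfp456, Zfp459, Zfp58, Zfp87, Zfp748, Zfp738 and Zfp273. RefSeq gives 11 of them a second name of the Rsl or Rslcan kind, out of 20 genes with such names, all on chromosome 13. The signals of most of them correlated from mouse to mouse after group and replicate number had been removed, and those of a few did not. The mean correlation of residual signal over 47 arrays was 0.35 within the cluster (91 pairs), 0.09 between its members and the others (798 pairs) and 0.03 among the others (1596 pairs), and pairs above 0.5 made up 26.4%, 6.89% and 4.07%. Without Organic-UVR replicate 1 these shares were 18.7%, 4.51% and 2.51%, and the lowest r within the cluster was -0.18 with all arrays.

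**Figure D3:**
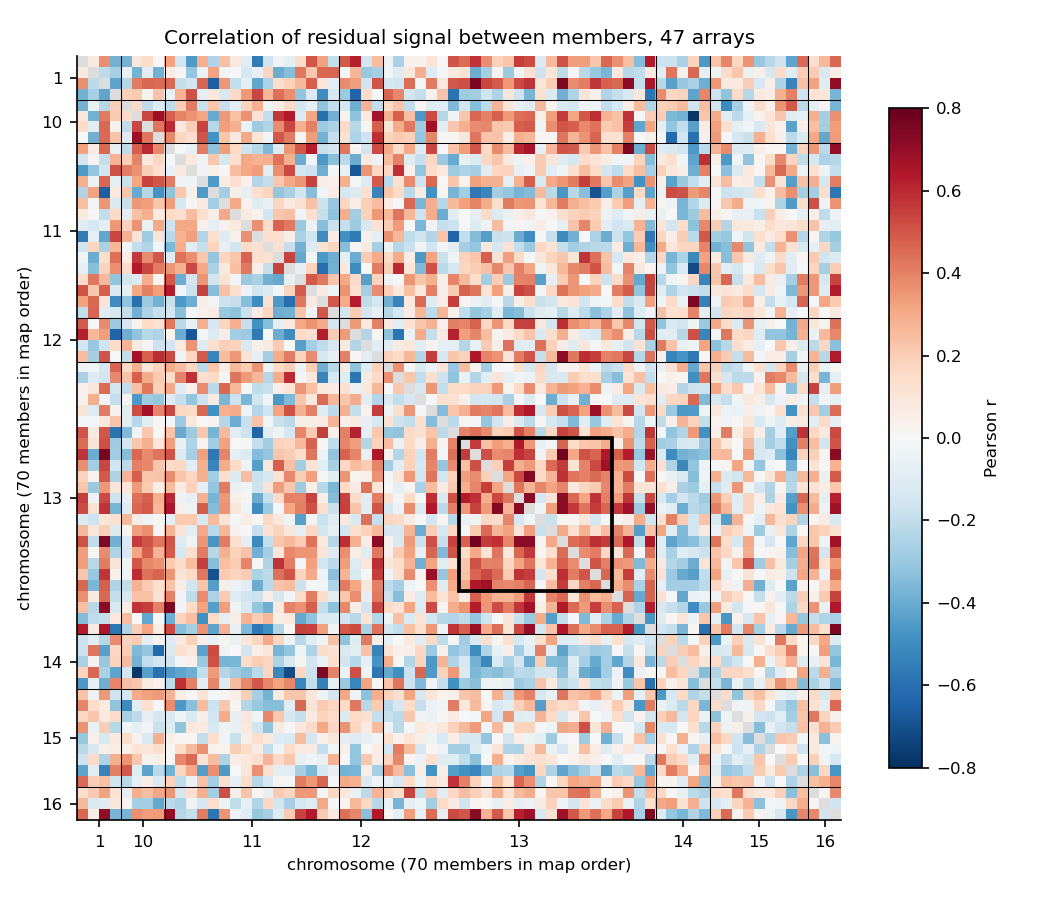
Pearson correlation of the residual log2 signal between each 2 of the 70 members with a position, over 47 arrays, in map order along both axes, with chromosomes divided by thin lines, the chromosome 13 cluster in the heavy square and each gene against itself in grey. The square holds mostly positive values (mean 0.35), and rows of single genes outside it, such as Zfp281 on chromosome 1, are as high.

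With all arrays the highest pair was Zfp58 with Zfp759 (r = 0.77, and 0.69 without Organic-UVR replicate 1), and without that array Zfp395 with Zfp652 (r = 0.79) and Zfp62 with Zfp148 (r = 0.78), both outside the cluster, stood above it. Zfp458 with Zfp953 followed within the cluster (r = 0.74), then Zfp58 with Zfp953 (r = 0.72) and Zfp595 with Zfp953 (r = 0.72). Against the mean of the other cluster members, 10 of the 14 were above 0.5, led by Zfp58 (r = 0.84), Zfp953 (0.73) and Zfp759 (0.73). The other 4 were Zfp708 (0.45), Zfp87 (0.42), Zfp459 (0.33) and Zfp456 (0.04). Within-cluster means stayed between 0.32 and 0.40 without Organic-UVR replicate 1, after quantile normalization, without the replicate term or with the slope as a covariate, while pairs outside stayed between 0.03 and 0.04. Tandem copies are alike in sequence, and whether their probes read each other's transcripts was not tested.

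The shared movement was not limited to the cluster. Among the 57 other members 11 followed the cluster mean at r above 0.5, or 19.3% (9 without Organic-UVR replicate 1), and so did 850 of 9744 other transcripts, or 8.72%. Zfp281 and Zfp148, both factors that bind GC-rich promoters, were at 0.76 and 0.65. The highest of all transcripts were Zfp729b (r = 0.87) and Zfp729a (0.87), which lie in the same stretch and are no members since a letter follows their number, and then Tdp2 (0.86) and Emc2 (0.85). Of the 3 members outside the cluster with the promoter element, Zfp72 was at 0.49, Zfp879 at 0.07 and Zfp454 at -0.01. Zfp692 (-0.55) and Zfp641 (-0.53) went most against the cluster.

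**Figure D4:**
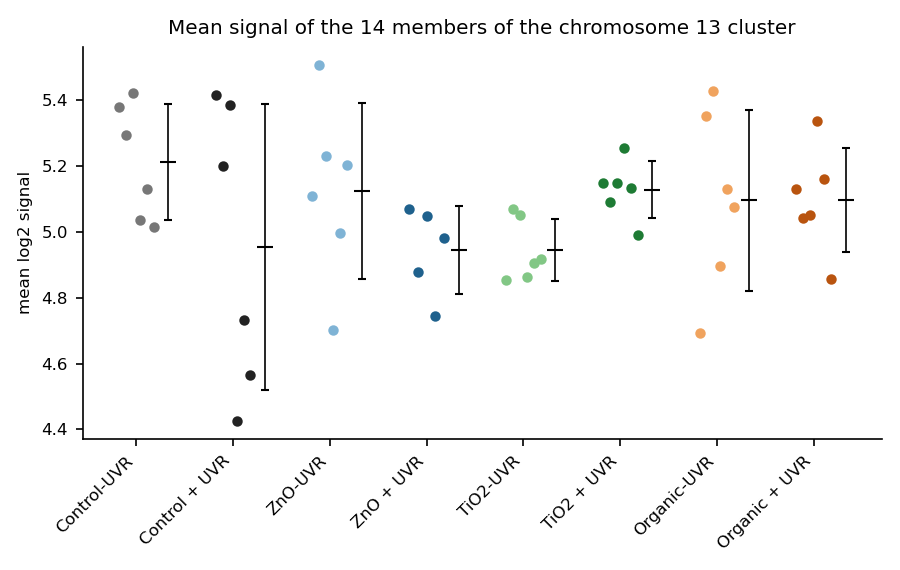
Mean log2 signal of the 14 cluster members on each of the 47 arrays (vertical axis), by group, with the mean and SD of the group as a bar beside the points. Control + UVR is split, with replicates 1 to 3 at 5.20 to 5.42 and replicates 4 to 6 at 4.43 to 4.73. Control-UVR divides by the same numbers, at 5.29 to 5.42 and 5.02 to 5.13. All groups overlap with Control-UVR.

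Averaged over the 14 genes, the signal was between 5.02 and 5.42 (median 5.21) in Control-UVR and between 4.43 and 5.42 (median 4.97) in Control + UVR. The 3 highest Control + UVR arrays matched the control range and the 3 lowest were below it. Control-UVR was also lower in replicates 4 to 6 (5.035, 5.132 and 5.016) than in replicates 1 to 3 (5.381, 5.294 and 5.422). A division by replicate number is therefore not particular to Control + UVR, though it was wider there. It was between 4.85 and 5.07 (median 4.91) in TiO2-UVR and between 4.99 and 5.25 (median 5.14) in TiO2 + UVR, the groups with the smallest spread (SD 0.09 and 0.09). The 5 ZnO + UVR arrays gave 5.07, 4.88, 5.05, 4.75 and 4.98. Organic-UVR ran from 4.69, which is replicate 1, to 5.43, and Organic + UVR from 4.86 to 5.34. The labels do not say which Control + UVR mice had skin changes, so the split of that group was not tested against them.

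All 14 cluster members were below 0 against Control-UVR in Control + UVR (median -0.24), in ZnO + UVR (median -0.34) and in TiO2-UVR (median -0.27), and 0 of them were called in any comparison. The 57 other members had medians of 0.02, 0.01 and 0.01 there. In ZnO-UVR 11 were below 0 (median -0.11), in TiO2 + UVR 10 (median -0.12), in Organic-UVR 10 (median -0.19) and in Organic + UVR 11 (median -0.18). Since the members co-vary and the comparisons share their controls, a count of signs is not a count of separate observations.

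**Figure D5:**
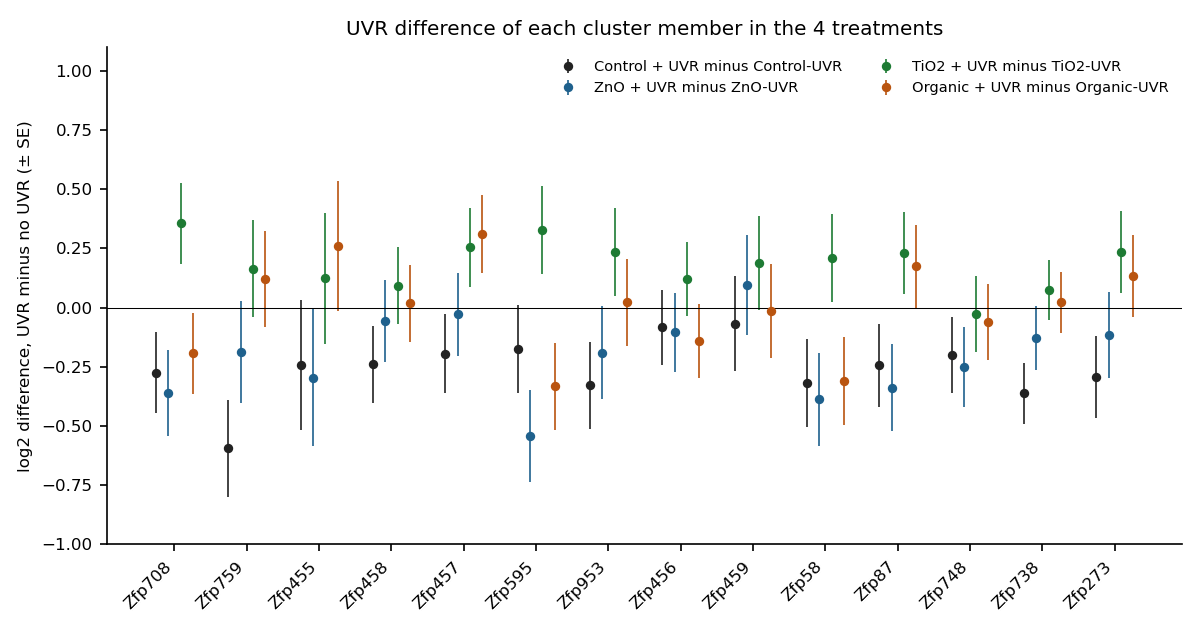
Log2 difference between mice with and without UVR (vertical axis, ± SE) of each of the 14 cluster members in map order, for no sunscreen, ZnO, TiO2 and Organic. Differences without sunscreen lie between -0.59 and -0.07, and those with TiO2 are above 0 for 13 of the 14 genes.

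The signs of the fitted UVR differences of the cluster genes were not alike in the 4 treatments, but co-varying genes are not separate observations. Without sunscreen the difference was below 0 for 14 of 14 genes, with ZnO for 13 (median -0.19), with Organic for 6 (median 0.02), and with TiO2 for 1 (median 0.20), which was Zfp748. Of all transcripts 45.2%, 50.0%, 50.7% and 47.4% were below 0, in the same order. Organic-UVR replicate 1 had the lowest mean cluster residual of all arrays (-0.44), and the Organic signs without it were not counted. The interaction of TiO2 with UVR was above 0 for all 14 (median 0.46), from which Zfp759 (0.76, SE 0.29) and Zfp708 (0.63, SE 0.24) had the largest values, each with a limma adjusted p of 0.401, and 5 of the 14 had an unadjusted p under 0.05. The same interaction for Organic had a median of 0.30 and that for ZnO 0.06. None passed adjustment, and the 3 interactions share the UVR difference of the controls, in which replicates 4 to 6 were low.

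Zfp58 is the gene closest to the cluster mean. Its signal was between 4.82 and 5.48 (median 5.14) in Control-UVR, between 4.00 and 5.61 (median 4.86) in Control + UVR and between 4.54 and 4.84 (median 4.69) in TiO2-UVR. The 5 ZnO + UVR arrays were at 4.62, 4.64, 5.00, 4.73 and 4.61, and Organic + UVR was between 4.36 and 5.08 (median 4.63). Each treated group overlapped with Control-UVR, and TiO2-UVR did so by its highest array alone. Against Control-UVR the differences were -0.32 (SE 0.19) in Control + UVR and -0.52 (SE 0.19, limma adjusted p = 0.161) in Organic + UVR.

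The cluster gene with the widest residual spread of all members was Zfp455, with an SD of 0.44 and signals from 2.87 to 5.72. Zfp825 (0.40), Zfp652 (0.34), Zfp62 (0.33), Zfp781 (0.32) and Zfp759 (0.32) came next. The median SD of members was 0.21, as it was over all transcripts (0.21). Zfp62 and Zfp825 correlated at r = 0.75, and Zfp62 fell to 4.51 on 1 Control + UVR array where Control-UVR ran from 5.70 to 6.41. Zfp781, Zfp873 and Zfp938 lie side by side at chr10:81901911-82241280, and Zfp781 and Zfp938 correlated at r = 0.68.

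Members with a known role outside the KRAB scheme were looked at as a list of 11 measured genes. Only Zfp622 and Zfp706 of these were called, in the organic filter comparison. Zfp148 (mean 8.52), Zfp207, a spindle and BUB3-binding protein (7.82), and Zfp281 (7.30) were well above the median transcript of 5.24. Zfp830, a splicing-associated protein (6.22), Zfp451 (5.99), Zfp142 (5.65) and Zfp219 (5.44) were above it by less. Zfp346, which binds double-stranded RNA (5.16), and Zfp365 (3.82) were below it. Zfp148 was tightly held in Control-UVR, between 8.65 and 8.81, and ran from 7.73 to 8.92 in Control + UVR. Zfp207 was between 7.83 and 8.24 in Control-UVR and between 7.10 and 7.88 in Organic-UVR, a difference of -0.34 (SE 0.13, limma adjusted p = 0.163), where replicate 1 was the lowest array and without it the difference was -0.23 and did not pass either. Zfp346 was lower by 0.33 (SE 0.13) in Control + UVR and by 0.34 (SE 0.13) in Organic + UVR, with limma adjusted p at 0.308 and 0.195.

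Over all arrays 39 of the 71 members had a mean above the median transcript. The brightest probesets were those of Zfp706 (8.81), Zfp148, Zfp652 (8.28) and Zfp207, and the dimmest those of Zfp640 (2.50), Zfp735 (2.53), Zfp616 (2.74) and Zfp389 (3.08), where the arrays cannot separate a low signal from none. Signals of different probesets are not comparable as amounts of RNA.

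Genes of the KRAB co-repressor and heterochromatin machinery were measured as a list of 16. The 1 called was Sumo3, a SUMO protein, which was lower in TiO2 + UVR (-0.74, SE 0.12, limma adjusted p = 0.00177), in Organic-UVR (-0.65, SE 0.12, limma adjusted p = 0.00604, and -0.54 with 0.0314 without replicate 1), in Organic + UVR (-0.57, SE 0.12, limma adjusted p = 0.0366), in TiO2 + UVR against TiO2-UVR (-0.68, SE 0.12, limma adjusted p = 0.00177) and with organic filters overall (-0.44, SE 0.06, limma adjusted p = 3.8e-05). Its homologue Sumo2, the chromobox genes Cbx1, Cbx3 and Cbx5, and Hdac2 were in the same list and were not called. The list's median was -0.06 in the organic filter comparison, where that of all transcripts was 0.02. It was -0.23 in Control + UVR and -0.17 in Organic + UVR, beside 0.03 and 0.03. In ZnO-UVR it was 0.02, and in the interaction of TiO2 with UVR it was 0.22, beside -0.0009 and -0.02.

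A list of 67 genes with symbols of other zinc finger series, picked by their symbols alone, had 4 called with organic filters (1 higher, 3 lower, beside 4.94% of all transcripts), 3 in Organic-UVR (beside 3.27%), 3 in Organic + UVR (beside 1.65%) and 1 in TiO2 + UVR against TiO2-UVR (beside 0.652%). Of those in Organic + UVR, Sp100 is a nuclear body protein that shares only the letters of its symbol with the Sp factors, which leaves Sp1 and Zcchc10. Klf12, a Krüppel-like repressor, was lower with organic filters (-0.38, SE 0.09, limma adjusted p = 0.0155). Sp1, a GC box binding factor, was lower in Organic-UVR (-0.54, limma adjusted p = 0.0507, and 0.276 without replicate 1) and Organic + UVR (-0.57, limma adjusted p = 0.0689). Klf10 was higher in TiO2 + UVR than in TiO2-UVR (0.97, SE 0.24, limma adjusted p = 0.055).

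Markers of other liver cells were read beside these differences. Pecam1, an endothelial gene, was lower with organic filters (-0.28, limma adjusted p = 0.0831, and 0.128 without Organic-UVR replicate 1) and Krt7, a bile duct gene, was higher in Organic-UVR (0.57, limma adjusted p = 0.00641, and 0.0314 without replicate 1), and a second bile duct gene, Sox9, was lower with organic filters (-0.24, limma adjusted p = 0.0834). Pecam1 is 1 of 3 measured endothelial genes, and the others were not called in any comparison. The median of the 3 with organic filters was -0.03. In Organic + UVR, Pecam1 was at -0.66 (limma adjusted p = 0.072) and the median of the 3 at -0.14. Krt7 and Sox9 are among 3 measured bile duct genes, and Krt7 was higher in Organic + UVR too (0.37, limma adjusted p = 0.095). The mean of the 3 endothelial genes was between 6.03 and 6.33 in Control-UVR and between 5.56 and 6.27 in Organic + UVR, and no hepatocyte, Kupffer cell, stellate cell, lymphocyte or muscle and fat marker was called in any comparison. The part of cell makeup in the differences of Zfp72, Zfp622, Zfp652 and Zfp706 was not tested.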

How the data were processed

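Liver RNA of 47 mice was hybridised to Affymetrix arrays, 1 a mouse. The deposited values are log2 intensities that the authors computed by RMA, named in the submitters' processing notes without a version. The study's methods say that batch effects were removed, and whether this was done in the deposited values is not given in the sources used here. The number of arrays limits the precision.

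From the deposited values, 6568 control probesets were left out and 9815 transcripts were tested, of which 7450 had a single symbol, 511 several and 1854 none. All per-sample columns were matched to a sample. Differences were fitted with limma 3.58.1 in R 4.3.3 (lmFit, contrasts.fit, eBayes) on all arrays, with group and replicate number as terms and 34 residual degrees of freedom, and p-values were adjusted by Benjamini-Hochberg over all transcripts of a comparison. The study's methods describe batches that each held a chip of every group, which is why the number is a term, and the labels do not say that the number marks the batch. The labels call the arrays biological replicates. The script was tested on simulated data. Tables and figures were made with Python 3.11.15, pandas 2.3.3 and matplotlib 3.10.9.

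The members named were, in each comparison, those called (up to 10 in each direction) or, where 0 were called, the 3 with the smallest p, then the 6 with the largest residual SD, the 4 with the highest and the 4 with the lowest mean, and those of a list of known roles. Of other lists up to 3 called genes were named. The chromosome 13 cluster, its genes and every other gene named were chosen after their values were seen. The alternatives were a fit without the replicate term, fits of the compared groups alone, quantile normalization, the array slope as a covariate, array weights, a filter on dim transcripts, the mean of a gene's probesets and fits without each array. Fits of parts of the series by UVR or replicate number, and values of further genes without Organic-UVR replicate 1, were added after the data were seen. The members, gene lists and alternatives were chosen with earlier results of these data known.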

Additional observations from a re-analysis of the deposited data

Results flagged for a closer look

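Each group of 6 or 5 arrays of the 39 named members was examined for a single array that stood apart, by Dixon's ratio of the gap to the range. Of 312 groups 27 had such an array (8.65%), where chance alone flags about 5% of groups. Values are log2 signals.

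Organic-UVR replicate 1, the array with the lowest slope, accounted for 9 of the 27. It was the lowest of its group for Zfp148 (7.20), Zfp281 (6.07), Zfp455 (3.28), Zfp706 (7.47) and Zfp759 (5.02), and the highest for Zfp286 (3.98), Zfp365 (4.69), Zfp879 (5.66) and Zfp957 (6.19). The members it read low are mostly bright and those it read high mostly dim, and the part of the array in these values was not tested apart from leaving it out.

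Among mice without sunscreen, Zfp174 was low in Control-UVR replicate 4 (4.71) and Zfp781 high in Control-UVR replicate 2 (5.87). In Control + UVR, replicate 1 was high for Zfp616 (3.72) and Zfp938 (8.14), and replicate 4 was low for Zfp708 (3.09), a gene of the chromosome 13 cluster. In ZnO-UVR, replicate 4 was low for Zfp72 (4.13), Zfp735 (2.20) and Zfp825 (6.65), and replicate 3 was low for Zfp142 (5.29). Zfp72 and Zfp825 are neighbours on chromosome 13. In ZnO + UVR, replicate 1 was high for Zfp346 (5.47) and Zfp879 (5.25), and replicate 2 was low for Zfp454 (4.70).

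In TiO2-UVR, replicate 1 was high for Zfp286 (4.21) and low for Zfp455 (3.01), and in TiO2 + UVR replicate 4 was high for Zfp389 (3.72). In Organic + UVR, replicate 4 was low for Zfp207 (6.80) and Zfp346 (4.31), and replicate 2 was high for Zfp286 (3.76).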

How the results depend on the processing

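No alternative reversed a direction. Counts below are members called, with the reported count in brackets where it is not 0. Without the replicate block they were 0 in TiO2 + UVR (1), 0 in Organic + UVR (1) and 1 with organic filters (4), with 30, 33 and 217 transcripts called against 68, 162 and 485. Same-numbered arrays of different groups correlated at a mean r of 0.15 (161 pairs, 64.0% above 0.1, lowest -0.51) and those of different numbers at -0.03. On average 20 of 47 arrays were closest to their own number. Not every pair was above 0.1 and the labels tie the number to nothing, so a shared batch was not taken as shown. The number was still a term of the main fits, so same-numbered arrays were matched in the reported calls. Fits of the compared groups alone gave 0 in Organic + UVR and 1 in the TiO2 interaction, beside 0.143% and 0.632% of all transcripts. Quantile normalization gave 0 in Organic + UVR, 1 for UVR within TiO2 and 1 with organic filters. Of all transcripts 0.0713%, 1.02% and 3.07% were called there. The slope covariate gave 0 in Organic + UVR, 1 for UVR within TiO2, 2 with organic filters and 1 in the TiO2 interaction. The shares of all transcripts were 0.234%, 1.81%, 2.2% and 0.621%. Array weights gave 6 in Control + UVR, 4 in TiO2 + UVR, 3 in Organic-UVR, 9 in Organic + UVR, 1 for UVR within TiO2, 5 for UVR overall and 1 in the TiO2 interaction, beside 3.62%, 3.99%, 8.57%, 14.9%, 0.897%, 2.35% and 0.988% of all transcripts. Without dim transcripts (4907 tested, Zfp72 not among them) they were 0 in TiO2 + UVR, 2 in Organic-UVR and 2 in Organic + UVR. Of the transcripts tested there, 1.63%, 11.7% and 7.93% were called. Where no share of all transcripts stands beside a count here, the count cannot be read as a gain among members. With organic filters they were 0 among groups without UVR and 1 among those with it, beside 0.0102% and 2.09% of all transcripts. Replicate numbers 1 to 3 alone gave 0 in TiO2 + UVR, 0 in Organic + UVR and 0 with organic filters. Of all transcripts 0%, 0% and 0.0509% were called there. Numbers 4 to 6 alone gave 9 in Control + UVR, 0 in TiO2 + UVR, 0 in Organic + UVR, 7 with organic filters and 3 in the TiO2 interaction, beside 5.17%, 0.968%, 0.214%, 7.67% and 1.37% of all transcripts. Leaving out 1 array gave 0 to 1 in Control + UVR (1 without Organic-UVR replicate 1), 0 to 2 in Organic-UVR, 0 to 1 in TiO2 + UVR, 0 to 6 in Organic + UVR and 2 to 7 with organic filters (6 and 7 without Organic + UVR replicate 1). Single named members kept their side of the threshold in 309 of 355 fits other than these, while 31 lost a call and 15 gained one. Most of the 355 are fits of results that were not called, so the 309 says little about how stable the calls are. The mean of a gene's probesets changed no call. The cause of these changes was not tested.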
